A study of Mus musculus with 16 samples.

Results

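8 mature microRNAs (miRNAs) listed as markers of non-neuronal cells, mainly of vessel walls and connective tissue, were followed in cultures of mouse forebrain neurons. They are mmu-miR-126a-3p, mmu-miR-126a-5p, mmu-miR-143-3p, mmu-miR-145a-5p, mmu-miR-199a-3p, mmu-miR-199a-5p, mmu-miR-10a-5p and mmu-miR-10b-5p, written below without the prefix for mouse. They were chosen by name out of the 1978 mature miRNAs of a table of read counts. Of the 8, 7 passed the filter on low counts, as did 483 names of the whole table, and miR-145a-5p did not. Neurons from perinatal mouse forebrain were grown in primary culture and transduced with a lentiviral vector in all 4 groups, the control included, and 4 small RNA libraries were counted per group. The shRNA group received a vector with a short hairpin RNA, shRNA_2bp and shRNA_5bp received the hairpin with 2 and 5 point mutations, and Empty_Vector was the control. The mutated hairpins bear on whether miRNA levels shift independently of a hairpin's target, the subject named in the series title. The labels give neither the hairpin's sequence and target nor the promoter, the mouse strain, the number of animals, or any step that removed other cells. They do not say that the 4 libraries of a group came from separate cultures, so the p-values measure the spread between these libraries, which may be technical.

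A miRNA is cut from a hairpin precursor whose 5p and 3p arms can each be loaded into an Argonaute protein, which then pairs with messenger RNAs mainly through the seed, bases 2 to 8 of the miRNA. miR-126 lies within Egfl7, a gene of endothelial cells, and is known there for sustaining the response to vascular endothelial growth factor. miR-143 and miR-145 are made from a common transcript in smooth muscle cells and fibroblasts, and favour the contractile state of smooth muscle. miR-199a and miR-214 are made from the Dnm3os transcript in mesenchymal cells. miR-10a and miR-10b lie within the Hox clusters and are expressed towards the trunk and tail of the embryo, like the Hox genes beside them.

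Sequences show which of these names can be told apart by their reads. RefSeq on GRCm38.p6 held the mature sequence of 5 of the 8, printed 5′ to 3′ with the seed in capitals.
miR-126a-3p (chr2:26591402-26591423, plus strand): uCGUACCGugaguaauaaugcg
miR-199a-3p (chr1:162217883-162217904, plus strand, and chr9:21496498-21496519, minus strand): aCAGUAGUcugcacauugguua
miR-199a-5p (chr1:162217844-162217866, plus strand, and chr9:21496537-21496559, minus strand): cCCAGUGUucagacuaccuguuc
miR-10a-5p (chr11:96317186-96317208, plus strand): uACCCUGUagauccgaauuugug
miR-10b-5p (chr2:74726074-74726096, plus strand): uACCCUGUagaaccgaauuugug
miR-10a-5p and miR-10b-5p share their seed and differ by 1 base, U12A counted from the 5′ end of miR-10a-5p, so that a read covering that base names its precursor. miR-199a-3p has the same sequence as miR-199b-3p (chr2:32318524-32318545, plus strand), and both names held identical counts in all 16 libraries, so the values of miR-199a-3p cannot be assigned to one of the genes. No other name had the counts of miR-199a-5p in all libraries.

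The precursor of miR-126a (chr2:26591357-26591429, plus strand) overlaps an exon of at least 1 transcript of Egfl7. Its opposite strand encodes miR-126b-5p, printed with capitals over the 19 bases that pair with miR-126a-3p.
miR-126b-5p (chr2:26591399-26591420, minus strand): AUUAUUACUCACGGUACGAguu
miR-126b-5p had 0 counts in every library. Mir10b (chr2:74726070-74726137, plus strand) lies in an intron of Hoxd3 and Hoxd4, and no annotated gene overlaps Mir10a (chr11:96317165-96317274, plus strand). Mir199a-2 (chr1:162217814-162217923, plus strand) lies in an exon of Dnm3os, antisense to an intron of Dnm3, and Mir214 follows 5444 bases further along Dnm3os. Mir199a-1 (chr9:21496495-21496564, minus strand) lies in an intron of Dnm2 on the opposite strand.

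The libraries held 5.30 to 8.06 M counts with shRNA, 1.18 to 2.10 M with shRNA_2bp, 0.832 to 2.50 M with shRNA_5bp and 2.76 to 11.1 M with Empty_Vector, where 1 M is 1000000. Depth therefore differs with the group, and the fewest counts stand behind the mutated hairpins. The 8 miRNAs together took 0.0664 to 0.0806% of a library with shRNA, 0.123 to 0.146% with shRNA_2bp, 0.128 to 0.143% with shRNA_5bp and 0.0657 to 0.0761% with Empty_Vector. Their share was higher in every library of the mutated hairpins than in any library of the other groups. miR-126a-3p alone made up 80.4 to 93.7% of these counts in every library. Levels below are counts per 1 M of the scaled library total (CPM), for libraries 1 to 4 in that order, and means carry the SD over 4 libraries. Counts of different miRNAs also depend on how well each is ligated to the adapters, so their levels are not compared as amounts of molecules.

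The cultures carried strong neuronal signal beside these miRNAs. A list of 7 neuronal miRNAs, most of whose counts were miR-128-3p, summed to 41.6 to 43.5% of a library with shRNA, 35.7 to 36.9% with shRNA_2bp, 35.5 to 38.8% with shRNA_5bp and 46.2 to 47.7% with Empty_Vector. miR-128-3p fell with all 3 hairpins, while the other 6 together held 8.98 to 10.1% with shRNA, 11.6 to 11.8% with shRNA_2bp, 10.7 to 11.6% with shRNA_5bp and 7.95 to 8.13% with Empty_Vector. Of the 7 names, 2 rose and 1 fell with shRNA, 3 rose and 3 fell with shRNA_2bp, and 4 rose and 1 fell with shRNA_5bp. miR-21a-5p and miR-22-3p, listed as astroglial, summed to 1936 to 2258 per 1 M counts with shRNA, 3462 to 3745 with shRNA_2bp, 2105 to 2369 with shRNA_5bp and 1581 to 1764 with Empty_Vector. In edgeR miR-21a-5p rose with all 3 hairpins and miR-22-3p with shRNA_2bp alone. The log2 fold change of miR-22-3p was 0.05 (adjusted p = 0.552) with shRNA and 0.06 (adjusted p = 0.420) with shRNA_5bp. Of 5 microglial and leukocyte names 2 were tested, the 5 summed to 75.3 to 105 per 1 M counts with shRNA, 88.8 to 110.1 with shRNA_2bp, 70.9 to 90.3 with shRNA_5bp and 45.1 to 57.0 with Empty_Vector, and their defining miR-142a-3p and miR-223-3p were at 0 in every library. Of the 3 erythroid names, miR-144-3p was at 0 in every library, and miR-451a held 5 to 13 counts in a group. The 3 summed to 177 to 193 with shRNA, 229.8 to 247 with shRNA_2bp, 219.99 to 252 with shRNA_5bp and 178 to 193 with Empty_Vector, nearly all of it miR-486a-5p. The striated muscle miRNAs miR-1a-3p, miR-133a-3p and miR-206-3p summed to 9.18 to 16.9 with shRNA, 37.8 to 49.1 with shRNA_2bp, 21.1 to 27.6 with shRNA_5bp and 39.5 to 58.7 with Empty_Vector, and 3 oligodendrocyte names to at most 14.4 in any library. The shares and sums above are of unscaled library totals, so a lower share of miR-128-3p by itself raises the others. On that scale the share of miR-128-3p was lower in every hairpin library than in any Empty_Vector library. The share of the other neuronal names and the astroglial and microglial sums were higher in every hairpin library than in any Empty_Vector library. The part of these shifts in the results below was not tested. In such bulk RNA, a change in the number of cells of a type and a change in the RNA per cell cannot be told apart.

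With shRNA_2bp, 5 of the 7 tested miRNAs rose relative to Empty_Vector and none fell, where 33.3% of all 483 tested miRNAs rose and 32.3% fell (adjusted p below 0.05, edgeR's quasi-likelihood test). The 5 were miR-10a-5p, miR-10b-5p, miR-126a-3p, miR-143-3p and miR-199a-3p, and all 5 had every shRNA_2bp library above every Empty_Vector library, as did 29.8% of all tested miRNAs. With shRNA_5bp, 5 of the 7 also rose and none fell, against 31.5% and 26.7% of all tested miRNAs, and there the 5 were miR-10b-5p, miR-126a-3p, miR-126a-5p, miR-199a-3p and miR-199a-5p. Complete separation upwards held there for 2 of the 7, miR-10b-5p and miR-126a-3p, and for 26.9% of all. With the unmutated shRNA, 0 of the 7 rose and 0 fell, while 19.7% of all tested miRNAs rose and 15.1% fell. In that comparison 0 of the 7 had an unadjusted p below 0.05 in edgeR, and DESeq2, which gave no adjusted p for miR-199a-5p, called 0 higher and 1, miR-126a-3p, lower. The median log2 fold change over the 7 was 1.40 with shRNA_2bp, where it was 0.01 over all tested miRNAs. It was 1.22 with shRNA_5bp, beside 0.06 over all, and 0.30 with shRNA, beside 0.04. These comparisons share the Empty_Vector libraries, and the 7 names are not independent, since the arms of miR-126a and of miR-199a share a precursor. miR-199a-5p was tested only because libraries of the mutated hairpins met the filter on low counts. miR-10b-5p and miR-126a-5p met it mainly through those libraries, so the counts and medians that include these names are not independent of the filter. The median of 1.40 with shRNA_2bp was the value of miR-199a-5p, which was not called there. That of 1.22 with shRNA_5bp was the value of miR-10b-5p.

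**Figure D1:**
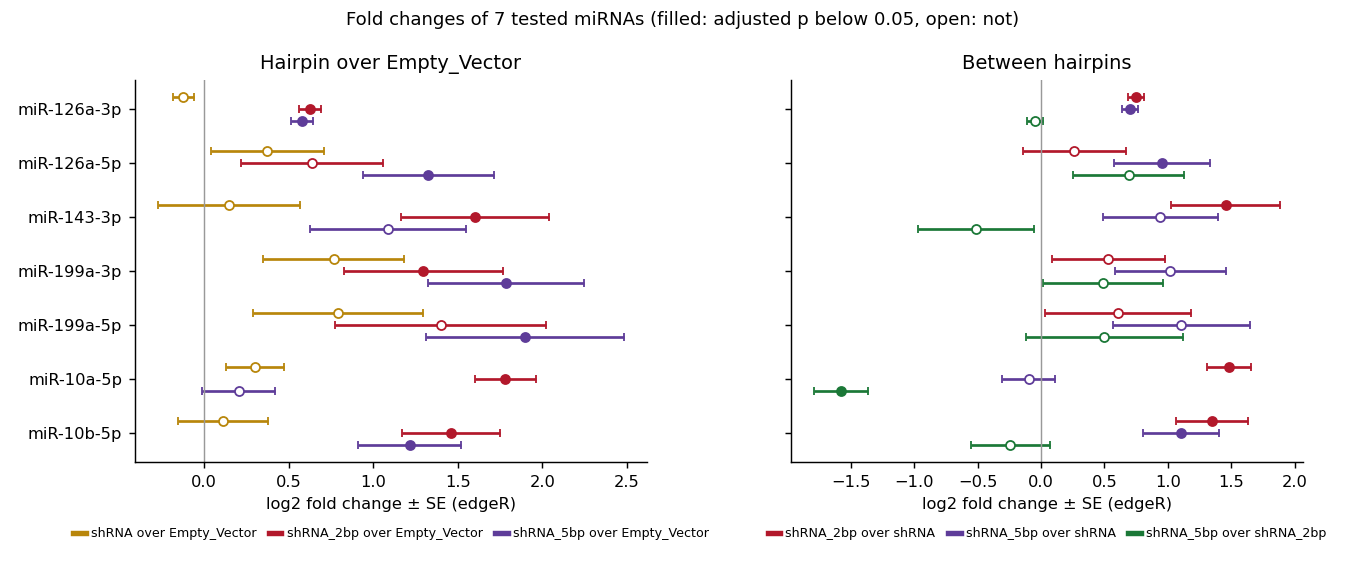
Log2 fold changes (x axis) with their standard errors for the 7 tested miRNAs (rows), against Empty_Vector on the left and between hairpins on the right; filled points had an adjusted p below 0.05 in edgeR. On the left the points of shRNA_2bp and shRNA_5bp lie right of 0 for each of the 7 miRNAs, and every point of shRNA is open.

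miR-126a-3p, known from endothelial cells, had the most counts of the 8 and rose with both mutated hairpins. It was at 621, 682, 701 and 695 CPM with shRNA, 1075, 1163, 1207 and 1092 CPM with shRNA_2bp, 1149.6, 1113, 1101 and 1032 CPM with shRNA_5bp and 660.3, 773, 739 and 767 CPM with Empty_Vector. Every library of the mutated hairpins lay above every Empty_Vector library. The means were 675 ± 36.5 CPM with shRNA, 1134 ± 62.0 CPM with shRNA_2bp, 1099 ± 49.0 CPM with shRNA_5bp and 735 ± 52.0 CPM with Empty_Vector (SD, n = 4 each). By mean CPM among the 483 tested miRNAs it ranked 83rd with shRNA, 55th with shRNA_2bp, 64th with shRNA_5bp and 76th with Empty_Vector. Its log2 fold change relative to Empty_Vector was 0.63 ± 0.0629 (adjusted p = 7.92e-10) with shRNA_2bp and 0.58 ± 0.0632 (adjusted p = 5.72e-09) with shRNA_5bp. With shRNA it was -0.12 ± 0.0620 (adjusted p = 0.127), with a 95% interval of -0.26 to 0.01. The sign of this small difference turned with library totals in place of scaled totals (0.019), and with DESeq2's size factors it passed as a fall of 0.16 (adjusted p = 0.0490) on the log2 scale. It was also called lower without Empty_Vector library 1, shRNA_2bp library 3 or 4, or shRNA_5bp library 2, at -0.17 each time (adjusted p 0.0320 to 0.0454).

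The opposite arm, miR-126a-5p, was counted far less often. It stood at 2.56, 6.86, 3.15 and 3.59 CPM with shRNA, 3.59, 5.43, 6.39 and 3.27 CPM with shRNA_2bp, 4.06, 8.17, 9.20 and 8.51 CPM with shRNA_5bp and 4.51, 2.70, 0.798 and 3.38 CPM with Empty_Vector. The shRNA_5bp libraries overlapped those of Empty_Vector only through library 1 of shRNA_5bp, which lay below library 1 of Empty_Vector. Relative to Empty_Vector it rose by 1.33 ± 0.387 (adjusted p = 0.00418) with shRNA_5bp, while the fold changes of 0.63 ± 0.420 (adjusted p = 0.188) with shRNA_2bp and 0.37 ± 0.335 (adjusted p = 0.435) with shRNA did not pass. Over the pooled counts of a group there were 174 counts of miR-126a-3p for each of miR-126a-5p with shRNA, 239 with shRNA_2bp, 141 with shRNA_5bp and 243 with Empty_Vector. The log2 ratio of the arms averaged 7.18 ± 0.540 with shRNA_5bp and 8.16 ± 1.00 with Empty_Vector (SD, n = 4 each), a difference that the two-sided exact permutation test did not separate (p = 0.114, adjusted p = 0.229 over 8 ratio tests). With shRNA the log2 ratio averaged 7.46 ± 0.575 (exact permutation p = 0.343, adjusted p = 0.457). A ratio of counts within a library does not depend on the scaling between libraries.

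**Figure D2:**
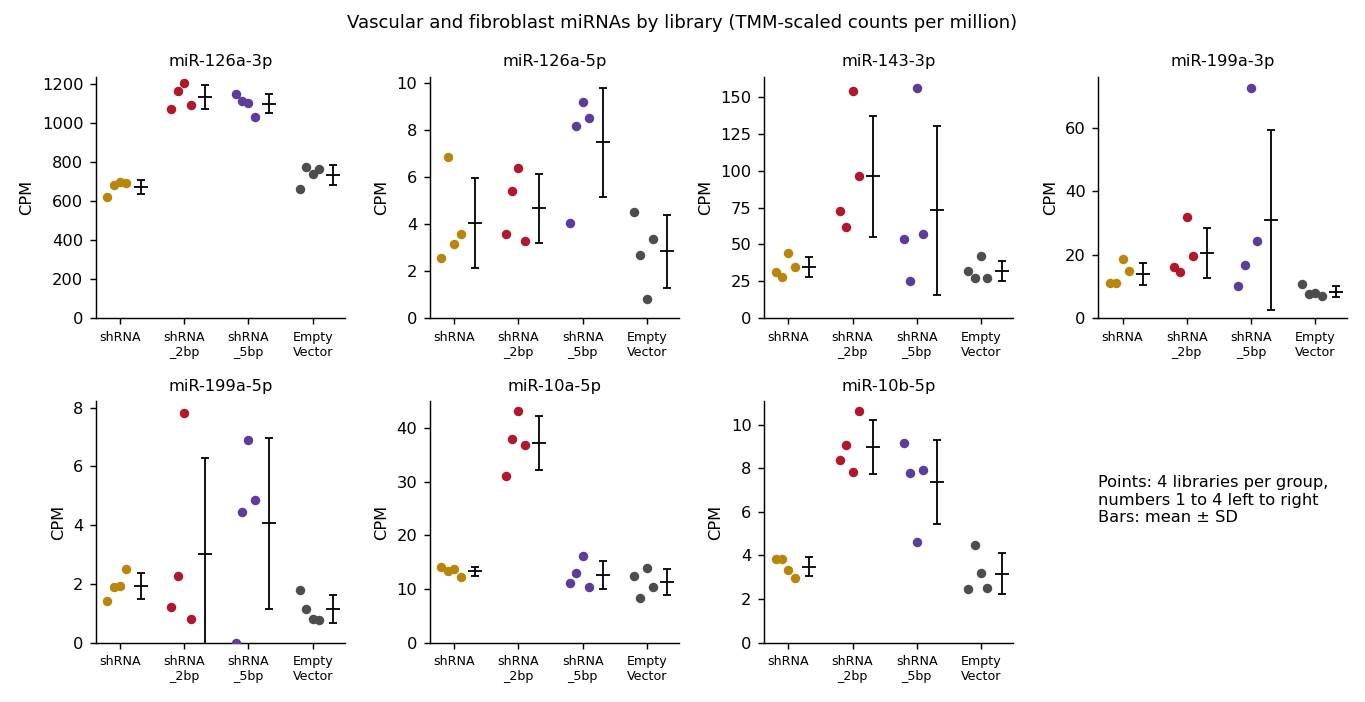
CPM (y axis, from 0) of the 7 tested miRNAs in each library, with 1 point per library, numbers 1 to 4 from left to right, and the mean ± SD beside them; the SD bar of miR-199a-5p with shRNA_2bp is cut at 0. Each miR-126a-3p point of shRNA_2bp and shRNA_5bp lies above every point of shRNA and Empty_Vector, while miR-143-3p and miR-199a-3p spread widely within the mutated hairpin groups.

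miR-143-3p, known from smooth muscle and fibroblasts, rose with shRNA_2bp and varied widely between libraries. It was at 31.5, 28.2, 44.5 and 34.5 CPM with shRNA, 73.0, 62.0, 154 and 96.5 CPM with shRNA_2bp, 53.8, 25.2, 156 and 57.1 CPM with shRNA_5bp and 32.2, 27.5, 41.9 and 27.3 CPM with Empty_Vector. All shRNA_2bp libraries lay above all Empty_Vector libraries, while library 2 of shRNA_5bp was the lowest of all 16. The log2 fold change relative to Empty_Vector was 1.60 ± 0.436 (adjusted p = 0.00565) with shRNA_2bp, 1.09 ± 0.462 (adjusted p = 0.0601) with shRNA_5bp and 0.15 ± 0.420 (adjusted p = 0.833) with shRNA. Of these only the first passed, and the 95% interval was 0.08 to 2.09 for shRNA_5bp and -0.77 to 1.06 for shRNA. The value of shRNA_5bp depended on its libraries: it was 0.47 (adjusted p = 0.274) without library 3 and 1.41 (adjusted p = 0.0104) without library 2.

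miR-145a-5p was close to absent from the counts. Its gene Mir145a (chr18:61647825-61647894, minus strand) lies 1301 bases from Mir143 (chr18:61649196-61649258, minus strand). It had 2 counts in all with shRNA, 2 with shRNA_2bp, 2 with shRNA_5bp and 0 with Empty_Vector, 6 of 66.9 M counts over the 16 libraries. A count of 0 over the Empty_Vector libraries allows up to 0.101 per 1 M counts, taking 3 counts over the group as the limit, for counting error only. All 4 groups were at or under that limit of 3 counts, so no fold is given. miR-143-3p had 2609 counts over the same libraries, 435 for each count of miR-145a-5p. So miR-143-3p was counted almost without the miRNA that shares its transcript in smooth muscle cells and fibroblasts. Which cells miR-143-3p came from was not tested. The other arm, miR-145a-3p, had 18 counts with shRNA, 8 with shRNA_2bp, 4 with shRNA_5bp and 24 with Empty_Vector, and was not tested.

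miR-199a-3p, known from mesenchymal cells, rose with both mutated hairpins. It was at 11.0, 11.2, 18.6 and 15.0 CPM with shRNA, 16.2, 14.5, 31.9 and 19.6 CPM with shRNA_2bp, 10.2, 16.7, 72.5 and 24.3 CPM with shRNA_5bp and 10.8, 7.59, 7.98 and 6.96 CPM with Empty_Vector. With shRNA_2bp and with shRNA all 4 libraries lay above all Empty_Vector libraries, whereas library 1 of shRNA_5bp lay below library 1 of Empty_Vector. The log2 fold change relative to Empty_Vector was 1.30 ± 0.469 (adjusted p = 0.0260) with shRNA_2bp and 1.78 ± 0.461 (adjusted p = 0.00383) with shRNA_5bp. With shRNA it was 0.77 ± 0.417 (adjusted p = 0.184), which did not pass, with a 95% interval of -0.14 to 1.67. Complete separation upwards was met by 1 of the 7 miRNAs in that comparison and by 18.2% of all tested miRNAs. Without library 3 of shRNA_5bp the same difference was 0.77 (adjusted p = 0.0106), and a fit of the shRNA and Empty_Vector libraries alone gave 0.76 (adjusted p = 0.00294). The call of shRNA_2bp was lost without shRNA_2bp library 3, at 0.94 (adjusted p = 0.120), or library 4, at 1.24 (adjusted p = 0.0637). It was also lost without Empty_Vector library 2, at 1.28 (adjusted p = 0.0515), or library 4, at 1.14 (adjusted p = 0.0835). With shRNA_5bp the value was 1.12 (adjusted p = 0.00164) without library 3.

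miR-199a-5p, the arm with another seed, had the lowest mean CPM of the tested members in each group. It was at 1.41, 1.91, 1.93 and 2.50 CPM with shRNA, 1.20, 2.26, 7.81 and 0.818 CPM with shRNA_2bp, 0, 4.45, 6.90 and 4.86 CPM with shRNA_5bp and 1.80, 1.14, 0.798 and 0.773 CPM with Empty_Vector. Library 1 of shRNA_5bp held no count, so its libraries overlapped those of Empty_Vector, although the other 3 lay above them. Relative to Empty_Vector it rose by 1.90 ± 0.584 (adjusted p = 0.00633) with shRNA_5bp, while 1.40 ± 0.625 (adjusted p = 0.0505) with shRNA_2bp and 0.79 ± 0.503 (adjusted p = 0.241) with shRNA did not pass. miR-199a-5p met the filter on low counts only through libraries of the mutated hairpins, where it was high. Its rise with them is therefore not independent of the filter. The value of shRNA_2bp fell on either side of the threshold with the settings, and was 1.58 (adjusted p = 0.0280) with library totals and 0.42 (adjusted p = 0.633) without shRNA_2bp library 3. It was called at 1.41 to 1.67 (adjusted p 0.0282 to 0.0496) without library 1 or 4 of shRNA, shRNA_2bp or shRNA_5bp, or library 1 of Empty_Vector. Pooled over a group, miR-199a-3p had 7.23 counts for each of miR-199a-5p with shRNA, 6.74 with shRNA_2bp, 6.08 with shRNA_5bp and 7.34 with Empty_Vector. The counts of miR-199a-3p can include reads of miR-199b-3p, which has the same sequence, so these are not ratios of the arms of miR-199a alone. The ratios were not tested because miR-199a-5p averaged under 10 counts in some groups. Relative to miR-126a-3p in the same library, the log2 ratio of miR-199a-3p averaged -5.62 ± 0.305 with shRNA and -6.46 ± 0.381 with Empty_Vector (SD, n = 4 each), with no overlap. Its two-sided exact permutation p was 0.0286, the smallest that 4 libraries against 4 allow, and the adjusted p over 8 ratio tests was 0.229.

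Several of the 7 miRNAs were highest in the libraries numbered 3. How many of all tested miRNAs were highest there was not counted, so this is not shown to be particular to the 7. Library 3 was also the smallest of Empty_Vector, at 2.76 M counts, and of shRNA_5bp, at 0.832 M. miR-143-3p was highest there in 4 of 4 groups, miR-199a-3p in 3 of 4, the groups with a hairpin, and the Hox cluster miR-10a-5p also in 3 of 4. miR-126a-3p, miR-126a-5p and miR-199a-5p were highest there in 2 of 4 groups, and miR-10b-5p in 0. Relative to the mean of the other 3 libraries of its group, library 3 was 1.42-fold higher for miR-143-3p with shRNA, 2.00-fold with shRNA_2bp, 3.45-fold with shRNA_5bp and 1.44-fold with Empty_Vector. For miR-199a-3p it was 1.50-fold higher with shRNA, 1.91-fold with shRNA_2bp and 4.25-fold with shRNA_5bp. For miR-10a-5p it was 1.23-fold higher with shRNA_2bp, 1.40-fold with shRNA_5bp and 1.35-fold with Empty_Vector. For miR-126a-3p it was 1.05-fold higher with shRNA and 1.09-fold with shRNA_2bp. In library 3 of shRNA_5bp, 4 of 360 miRNAs of at least 10 CPM exceeded the next highest library of the group more than 2-fold, and these were miR-143-3p, miR-152-3p, miR-199a-3p and miR-199b-3p. The arms of miR-214, from the transcript of miR-199a-2, summed to 6.01 per 1 M counts there, at 5 counts, and to at most 1.20 per 1 M counts in the other shRNA_5bp libraries. Neither arm of miR-214 passed the filter.

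**Figure D3:**
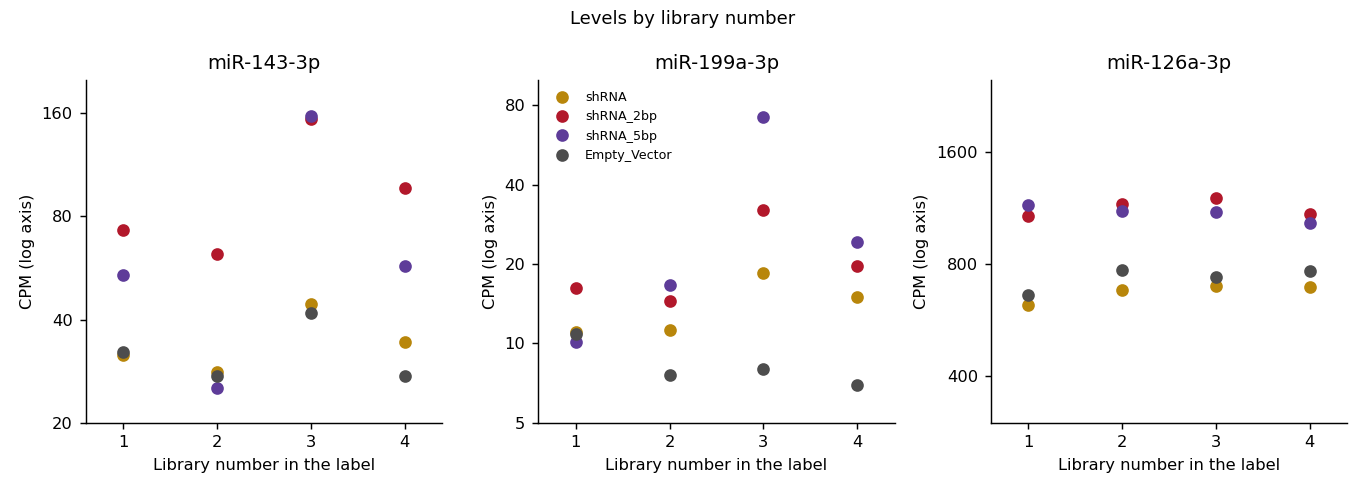
CPM on a log axis against the library number of the label for miR-143-3p, miR-199a-3p and miR-126a-3p, with 1 point per library coloured by group. Library 3 is the highest of its group for miR-143-3p in all 4 groups, at 154 CPM with shRNA_2bp and 156 CPM with shRNA_5bp, while miR-126a-3p differs by at most 1.17-fold between the libraries of a group.

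The labels do not say what a shared number means. Leaving out the 4 libraries numbered 3 together, a choice made after seeing these values, kept the rises of shRNA_2bp over Empty_Vector for miR-143-3p, at 1.44 (adjusted p = 1.74e-05), and for miR-199a-3p, at 1.04 (adjusted p = 0.00309). With shRNA_5bp it gave 0.50 (adjusted p = 0.0928) for miR-143-3p and 1.01 (adjusted p = 0.00354) for miR-199a-3p. The rises were then smaller than with all libraries, and miR-199a-5p no longer passed the filter on low counts.

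miR-10a-5p and miR-10b-5p, the Hox cluster miRNAs with a common seed, rose together with shRNA_2bp and differed in their calls with shRNA_5bp. miR-10a-5p was at 14.1, 13.3, 13.7 and 12.2 CPM with shRNA, 31.1, 38.0, 43.3 and 36.8 CPM with shRNA_2bp, 11.2, 13.0, 16.1 and 10.3 CPM with shRNA_5bp and 12.4, 8.32, 14.0 and 10.3 CPM with Empty_Vector. The shRNA_2bp libraries lay above all others, and the other groups overlapped. Its log2 fold change relative to Empty_Vector was 1.78 ± 0.180 (adjusted p = 8.90e-10) with shRNA_2bp, 0.20 ± 0.215 (adjusted p = 0.425) with shRNA_5bp and 0.30 ± 0.173 (adjusted p = 0.192) with shRNA. The 95% interval with shRNA_5bp was -0.27 to 0.67, and the sign turned without a filter on low counts (-0.038) or without Empty_Vector library 2 (-0.024). The rise with shRNA_2bp was the largest of the 7 miRNAs in that comparison.

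miR-10b-5p was at 3.84, 3.81, 3.33 and 2.96 CPM with shRNA, 8.38, 9.05, 7.81 and 10.6 CPM with shRNA_2bp, 9.14, 7.80, 4.60 and 7.90 CPM with shRNA_5bp and 2.48, 4.47, 3.19 and 2.51 CPM with Empty_Vector. All libraries of both mutated hairpins lay above all Empty_Vector libraries, with library 3 of shRNA_5bp, at 4 counts, the closest. The log2 fold change was 1.46 ± 0.289 (adjusted p = 7.49e-05) with shRNA_2bp, 1.22 ± 0.305 (adjusted p = 0.00110) with shRNA_5bp and 0.11 ± 0.266 (adjusted p = 0.790) with shRNA. Of the counts of both miRNAs, miR-10a-5p held 79.3 ± 1.33% with shRNA, 80.5 ± 3.13% with shRNA_2bp, 63.0 ± 10.4% with shRNA_5bp and 77.6 ± 8.43% with Empty_Vector (SD, n = 4 each). Pooled over a group there were 3.82 counts of miR-10a-5p for each of miR-10b-5p with shRNA, 4.17 with shRNA_2bp, 1.64 with shRNA_5bp and 3.15 with Empty_Vector. The log2 ratio averaged 0.77 ± 0.644 with shRNA_5bp and 1.81 ± 0.625 with Empty_Vector (SD, n = 4 each). That difference had an exact permutation p of 0.0571 and an adjusted p of 0.229. With 4 libraries against 4 the smallest p is 0.0286, and the ratio that reached it also had an adjusted p of 0.229. The test could therefore hardly separate the pair, whose unlike calls with shRNA_5bp are neither shown to differ nor shown to be alike.

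miR-615-3p, from an intron of Hoxc5, is another Hox cluster miRNA, with the sequence printed here for its seed, which differs from that of miR-10.
miR-615-3p (chr15:103014969-103014990, plus strand): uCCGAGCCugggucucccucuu
It was at 7.05, 5.33, 5.26 and 7.17 CPM with shRNA, 16.8, 12.7, 15.6 and 18.8 CPM with shRNA_2bp, 2.03, 3.71, 6.90 and 6.69 CPM with shRNA_5bp and 4.51, 6.24, 7.58 and 8.12 CPM with Empty_Vector. As with miR-10a-5p, the shRNA_2bp libraries lay above all others. Its log2 fold change relative to Empty_Vector was 1.24 ± 0.247 (adjusted p = 7.91e-05) with shRNA_2bp, -0.49 ± 0.317 (adjusted p = 0.188) with shRNA_5bp and -0.09 ± 0.229 (adjusted p = 0.802) with shRNA, whose sign turned with library totals (0.050). The Hox cluster miRNAs miR-196a-5p and miR-196b-5p held 0 to 11 counts in a library and were not tested.

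**Figure D4:**
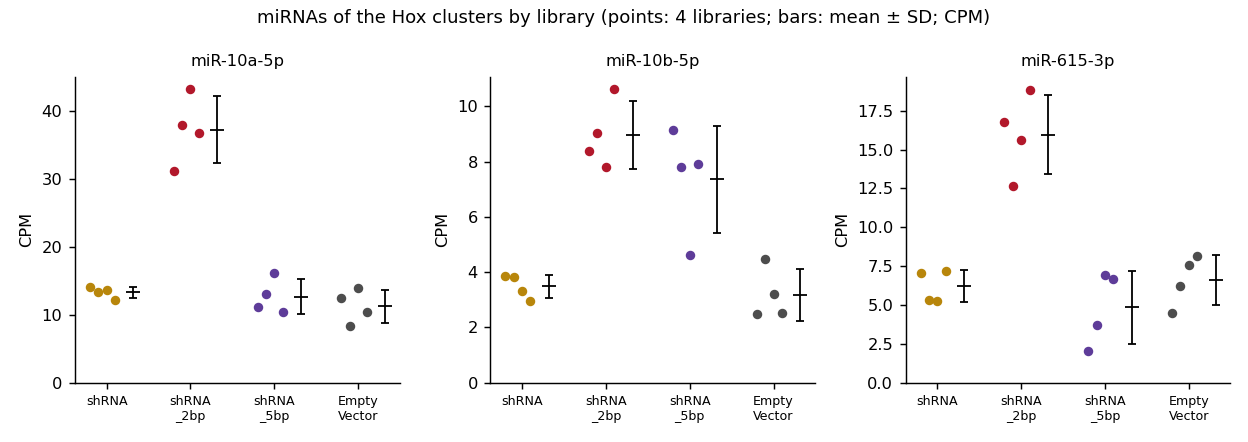
CPM (y axis, from 0) of miR-10a-5p, miR-10b-5p and miR-615-3p in each library, with the mean ± SD beside the 4 points of a group. In all 3 panels the shRNA_2bp points lie above every Empty_Vector point, and the shRNA_5bp points do so for miR-10b-5p alone.

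Relative to the unmutated shRNA, 4 of the 7 miRNAs rose with shRNA_2bp and none fell, where 31.1% of all tested miRNAs rose and 33.5% fell. They were miR-10a-5p, at 1.48 ± 0.175 (adjusted p = 1.85e-08), miR-10b-5p, at 1.35 ± 0.285 (adjusted p = 0.000167), miR-126a-3p, at 0.75 ± 0.0629 (adjusted p = 1.87e-11), and miR-143-3p, at 1.45 ± 0.427 (adjusted p = 0.00925). In each of these 4 every shRNA_2bp library lay above every shRNA library, a separation met by 27.5% of all tested miRNAs. With shRNA_5bp, 3 of the 7 rose relative to shRNA and none fell, where 28.4% of all rose and 24.6% fell. These were miR-10b-5p, at 1.10 ± 0.300 (adjusted p = 0.00270), miR-126a-3p, at 0.70 ± 0.0632 (adjusted p = 1.80e-10), and miR-126a-5p, at 0.95 ± 0.375 (adjusted p = 0.0346). Without a filter on low counts miR-126a-3p alone passed, while miR-10b-5p was at 0.89 (adjusted p = 0.0548) and miR-126a-5p at 0.74 (adjusted p = 0.137). Complete separation upwards held for 2 of them, miR-10b-5p and miR-126a-3p, and for 24.8% of all tested miRNAs. The call of miR-126a-5p was lost without shRNA library 1, 3 or 4, shRNA_5bp library 2, 3 or 4, or Empty_Vector library 2 or 3, at 0.63 to 0.90 (adjusted p 0.0509 to 0.164). The differences of miR-143-3p, 0.94 ± 0.454 (adjusted p = 0.0997), miR-199a-3p, 1.02 ± 0.436 (adjusted p = 0.0636), and miR-199a-5p, 1.11 ± 0.538 (adjusted p = 0.0853), did not pass. Without library 1 of shRNA_5bp the count was 5 of 7. miR-10b-5p and miR-126a-5p met the filter on low counts mainly through libraries of the mutated hairpins, and miR-199a-5p only through them. The counts relative to shRNA are therefore not independent of the filter.

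Between the mutated hairpins, miR-10a-5p was the 1 of 7 miRNAs that differed, being lower with shRNA_5bp than with shRNA_2bp by a log2 fold change of -1.58 ± 0.210 (adjusted p = 2.01e-07). Of all tested miRNAs 22.8% were lower and 36.9% higher, so a count of 1 lower is near the background share, and that of 0 higher below it. Its libraries did not overlap, as for 20.3% of all tested miRNAs. In edgeR 0 of the 7 were higher at an unadjusted p below 0.05 as well, and DESeq2 called 0 higher. miR-615-3p was also lower with shRNA_5bp, at -1.73 ± 0.319 (adjusted p = 3.30e-05). miR-126a-3p, at -0.05 ± 0.0636 (adjusted p = 0.546), had a 95% interval of -0.18 to 0.09, and miR-10b-5p, at -0.24 ± 0.312 (adjusted p = 0.517), one of -0.92 to 0.44. The other 4 tested miRNAs had log2 fold changes between -0.51 ± 0.460 for miR-143-3p and 0.69 ± 0.438 for miR-126a-5p, with adjusted p-values of 0.182 to 0.506. For miR-143-3p the difference was -1.14 (adjusted p = 0.0129) without library 3 of shRNA_5bp, and for miR-199a-3p, at 0.49 ± 0.476 (adjusted p = 0.403), it turned to -0.19 (adjusted p = 0.618). For miR-126a-3p it was called lower, at -0.17 each time (adjusted p 0.0204 to 0.0287), without Empty_Vector library 2 or 3 or shRNA library 1, 2 or 3. It turned to 0.0018 without shRNA_2bp library 3.

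2 further vessel wall miRNAs were listed. miR-221-3p, which promotes smooth muscle growth, differed from Empty_Vector by 0.38 ± 0.0713 (adjusted p = 9.72e-05) with shRNA, -0.78 ± 0.0746 (adjusted p = 3.30e-10) with shRNA_2bp and 0.47 ± 0.0727 (adjusted p = 2.45e-06) with shRNA_5bp. miR-222-3p, from the same cluster, differed by 0.18 ± 0.0679 (adjusted p = 0.0456) with shRNA, -1.38 ± 0.0719 (adjusted p = 4.42e-16) with shRNA_2bp and -0.39 ± 0.0698 (adjusted p = 2.37e-05) with shRNA_5bp. The call of miR-222-3p with shRNA was lost under 10 of 23 alternative settings, among them DESeq2, 2 groups only, no filter and the fits without library 1 or 4 of Empty_Vector, library 3 or 4 of shRNA_2bp or library 2 of shRNA_5bp, at 0.10 to 0.18 (adjusted p 0.0609 to 0.347). Its call with shRNA_5bp was lost with library totals (-0.14, adjusted p = 0.0665). Both fell with shRNA_2bp, where miR-126a-3p, miR-143-3p and miR-199a-3p rose, whereas with shRNA_5bp miR-221-3p rose, as miR-126a-3p did. Of 9 opposite arms and close relatives, miR-199b-3p was the 1 that could be tested, with the counts of miR-199a-3p, and miR-126b-3p, miR-126b-5p and miR-145b were at 0 in every library.

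Among 356 other tested miRNAs of at least 10 CPM, those most like each member were found by the root mean square difference of their 3 log2 fold changes against Empty_Vector, over the 4 groups. miR-582-3p (0.0991) and miR-204-5p (0.114) lay closest to miR-126a-3p. miR-23a-3p (0.0860) and miR-203-3p (0.133) lay closest to miR-126a-5p. miR-881-3p and miR-5099 lay closest both to miR-143-3p (0.136 and 0.216) and to miR-10b-5p (0.173 and 0.305). miR-1298-5p (0.165) and miR-378c (0.233) lay closest to miR-10a-5p. For both arms of miR-199a the closest were miR-199b-3p, which for the 3p arm is the same sequence, and miR-129-2-3p (0.348 from the 3p arm and 0.403 from the 5p arm). These distances describe 3 fold changes that share their control libraries.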

How the data were processed

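Small RNA libraries were made from 100 ng of total RNA with adapter ligation, 15 PCR cycles and size selection, per the labels' protocols. The deposited table holds raw counts of reads per mature miRNA name, as whole numbers with a different total in each library, and 0 columns of other samples. The submitters' processing notes give the build GRCm38.p6 and, without roles, edgeR, Bowtie 1.1.1, bcl2fastq 2.20.0.422, cutadapt 1.15 and Trim Galore 0.6.0. Reads sharing several names may have been counted under each. No molecular identifiers are stated, so limits on counts cover counting error only.

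All 16 libraries were fitted together in edgeR 4.0.16 (limma 3.58.1, R 4.3.3): filterByExpr, TMM scaling, robust quasi-likelihood F test, 12 residual degrees of freedom, Benjamini-Hochberg adjustment over 483 miRNAs in each of 6 comparisons, called at an adjusted p below 0.05. The filter removed 1495 names, 611 of them without a count. ± after a fold change is its standard error, and 95% intervals used a t distribution. The code was tested on simulated counts. Log2 ratios within libraries had 0.5 added to each count and a two-sided exact permutation test, for 8 of 15 planned tests; the others had a mean under 10 counts. Adjustment was over these 8. No 2 libraries of a group agreed within sampling noise (chi-square per degree of freedom 4.49 to 84.8).

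The members, lists and tests were chosen with earlier results of these data known. Named were all 8 members, tested companions listed by name and the 2 most alike miRNAs per member; miR-152-3p was named after its values were seen.

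Whether libraries of the same number pair was checked by correlating their deviations from group means over 360 miRNAs. All 4 correlations exceeded 0.1 for shRNA with Empty_Vector (0.111 to 0.282) and for shRNA_2bp with shRNA (0.166 to 0.198), and not in the other comparisons. shRNA_2bp with Empty_Vector fell just short (0.0943 to 0.163). For shRNA with Empty_Vector and for shRNA_2bp with shRNA, 8 of 8 libraries correlated best with the library of their own number. This held for 4 of 8 in shRNA_2bp with Empty_Vector and 2 of 8 in shRNA_5bp with Empty_Vector. For shRNA_5bp it held for 4 of 8 with shRNA and 6 of 8 with shRNA_2bp. The match by number was thus complete in some comparisons only, and whether the numbers pair all the libraries is not settled. Alternatives were other scalings, no filter, a replicate block, 2 groups only, DESeq2 1.42.0 and leaving out each library. Sequences and positions are RefSeq's and host genes GENCODE M21's on GRCm38.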

Additional observations from a re-analysis of the deposited data

How the results depend on the processing

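Over 42 fold changes (7 miRNAs in 6 comparisons), direction and call were kept in 40 with DESeq2's size factors, in 35 with library totals, in 38 without a filter on low counts, in 39 with a replicate block, in 32 of the 35 that could be fitted with 2 groups only, in 35 of 41 with DESeq2, and in 632 of 672 fits that left out 1 library. Library totals moved the median of all miRNAs relative to Empty_Vector to 0.18 with shRNA, 0.19 with shRNA_2bp and 0.30 with shRNA_5bp. With them the small differences of miR-126a-3p turned to 0.019 for shRNA over Empty_Vector and 0.014 for shRNA_5bp over shRNA_2bp, and that of miR-10a-5p to 0.011 for shRNA_5bp over shRNA. Without a filter miR-10a-5p turned to -0.038 for shRNA_5bp over Empty_Vector, and without the libraries numbered 3 miR-199a-3p turned to -0.032 for shRNA_5bp over shRNA_2bp. Leaving out 1 library gave -0.070 to 0.45 for miR-10b-5p in shRNA over Empty_Vector, -0.024 to 0.26 for miR-10a-5p in shRNA_5bp over Empty_Vector, -0.32 to 0.88 for miR-199a-5p in shRNA_2bp over shRNA, and, in shRNA_5bp over shRNA_2bp, -0.17 to 0.0018 for miR-126a-3p and -0.19 to 0.80 for miR-199a-3p. None of these had been called.

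For shRNA over Empty_Vector, 1 of the 7 was higher with library totals (miR-10a-5p, 0.44 (adjusted p = 0.0457)) and 1 with 2 groups only (miR-199a-3p), and 1 was lower with DESeq2's size factors and 1 with DESeq2 (miR-126a-3p both times). Leaving out 1 library gave 0 to 1 higher and 0 to 1 lower. For shRNA_5bp over shRNA, 1 rose without a filter and 5 with the block, and 2 to 5 without 1 library. For shRNA_5bp over shRNA_2bp, 2 were lower with 2 groups only and 2 without the libraries numbered 3, and 1 to 2 without 1 library. Without 1 library, 4 to 6 rose with shRNA_2bp and 5 to 6 with shRNA_5bp over Empty_Vector. Over all miRNAs, shRNA had 95 higher and 73 lower than Empty_Vector, and with library totals 149 and 44; shRNA_5bp had 129 lower than Empty_Vector, and 81 with library totals, and 119 lower than shRNA, and 185 without a filter. It had 137 higher than shRNA, and 91 without shRNA library 1 and 90 without library 3. The causes were not tested.

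The block on replicate number changed no call in the 2 comparisons where all 4 correlations of same-numbered libraries exceeded 0.1. In comparisons that did not meet this, the block called miR-143-3p for shRNA_5bp over Empty_Vector at 0.94 (adjusted p = 0.00557), and over shRNA miR-143-3p at 0.86 (adjusted p = 0.0108) and miR-199a-3p at 0.97 (adjusted p = 0.00736). Whether the numbers pair these libraries is not settled. Depth limits miR-145a-5p, miR-126a-5p, miR-199a-5p and miR-10b-5p, whose counts in a library of the mutated hairpins were few (4 to 21 for miR-10b-5p, 4 to 22 for miR-126a-5p and 0 to 12 for miR-199a-5p).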
